A study of Arabidopsis thaliana with 4 samples.

Results

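The microRNA miR8183 (ath-miR8183), its hairpin gene MIR8183 (AT3G05985) and the pseudogene AT3G30110, within which the hairpin lies, were followed as 3 rows among 38194 gene rows and 349 miRNA rows. They were chosen by name after their counts in both genotypes had been seen, so their own values are given as a description, with no test. Small RNAs came from Arabidopsis thaliana seedlings 10 days after germination, in 2 groups of 2 libraries. The first group was PORI rpt2a, the PORI line combined with an rpt2a mutation, and the second was PORI alone, labelled control. The labels name no allele of rpt2a and do not spell out PORI, which both groups carry. No label states that replicates were grown separately. The RNA came from bulk seedlings, so fewer cells of a type and less RNA per cell cannot be told apart.

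A plant miRNA is cut from the folded stem of a longer transcript by the nuclease DCL1, mostly as a 21 nt strand that an Argonaute protein, usually AGO1, carries to matching transcripts. A second class, siRNAs, is cut from double-stranded RNA, and the 24 nt siRNAs made by DCL3 guide DNA methylation at transposons and other repeats. Young miRNA genes are few in reads, and some of them lie inside other genes. RPT2a is an ATPase subunit of the proteasome's regulatory particle. By its title, the series concerns RPT2a in the silencing of transcripts and in the quality control of RNA.

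Small RNA reads of RPT2a itself (AT4G29040) numbered 38 and 8 in PORI rpt2a and 27 and 21 in PORI, and since they do not measure its mRNA they do not check the genotype. The libraries differed in depth, with 5884528 and 3241463 counts over 3 tables (genes, miRNAs and transposable elements, TEs) in PORI rpt2a and 5806942 and 4809644 in PORI. PORI rpt2a replicate 2 stood apart. Its log2 CPM of miRNAs (counts-per-million, TMM-normalised within each table) correlated with the other libraries at 0.870 to 0.887, against 0.964 to 0.978 among those 3. In genes it correlated with them at 0.642 to 0.775, against 0.790 to 0.887 among those 3. The 2 mutant libraries thus correlated less in genes (0.775) than PORI rpt2a replicate 1 did with either control (0.816 and 0.790). The members' values are therefore given with and without PORI rpt2a replicate 2.

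In the TAIR10.1 annotation the MIR8183 hairpin lies wholly inside AT3G30110, a transcribed pseudogene of chromosome 3. The annotation table used gives no strand, so whether both lie on the same strand was not determined, and "inside" and "outside" here refer to position and counts only. The deposited counts nest in the same way. In each of the 36 combinations of library and read length, the mature row held at most as many reads as the hairpin row, and the hairpin row at most as many as the pseudogene row. In most of these combinations the smaller row held no read, so the comparison could not fail there. In 18 of 20 combinations from 18 to 22 nt the hairpin and the pseudogene held the same number, in some of them no read. Of 136 reads counted for AT3G30110, 103 (75.7%) were thus counted for MIR8183 too, and 33 lay outside it. The 3 rows are not independent measurements, and the differences between them give 3 separate parts: mature miR8183, other hairpin reads, and pseudogene reads outside the hairpin.

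Mature miR8183 was read 3 and 0 times in PORI rpt2a, against 21 and 23 times in PORI. Within the miRNA table these were 10.8 and 0 CPM in PORI rpt2a and 47.5 and 73.6 CPM in PORI. Both mutant libraries lay below both controls. At the pooled PORI rate, the depths of the mutant libraries would have given 16.2 and 7.39 reads. The count of 0 in PORI rpt2a replicate 2 allows up to 23.7 CPM, taking 3 counts as the limit, which is below both control values. Of all 47 mature reads 46 were 21 nt long, and the other was a 20 nt read in PORI replicate 2.

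The hairpin row held 6 and 2 reads in PORI rpt2a, against 48 and 47 in PORI. It averaged 1.04 ± 0.0658 CPM in PORI rpt2a and 9.91 ± 2.18 CPM in PORI (SD, n = 2 each; CPM of the gene table). The mutant libraries were close to each other, at 1.08 and 0.991 CPM, and both were far below the controls at 8.36 and 11.4 CPM. Pooled over each group, the ratio was 9.11-fold lower in PORI rpt2a (exact 95% interval 4.44 to 21.7). This interval, like the others here, covers counting error only. Scaled to the 21 nt reads of the gene table alone, the 21 nt hairpin reads stood at 5.45 and 1.89 CPM in PORI rpt2a and at 39.6 and 40.1 CPM in PORI. The 2 controls were nearly equal on this scale.

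The AT3G30110 row held 10 and 2 reads in PORI rpt2a and 67 and 57 in PORI. It averaged 1.40 ± 0.577 CPM in PORI rpt2a and 12.8 ± 1.56 CPM in PORI (SD, n = 2 each). Pooled over each group rather than taken from these means, the ratio was 7.93-fold lower in the mutant (exact 95% interval 4.38 to 15.8). Most of that row is the hairpin, so its own part is the remainder. Outside the hairpin, the pseudogene held 4 and 0 reads in PORI rpt2a, against 19 and 10 in PORI. The groups did not overlap there either, at 0.723 and 0 CPM in PORI rpt2a and 3.31 and 2.44 CPM in PORI. The pooled ratio there was 5.56-fold lower in the mutant (exact 95% interval 1.95 to 21.8). The limit from a count of 0 in PORI rpt2a replicate 2 was 1.49 CPM, below both controls.

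**Figure D1:**
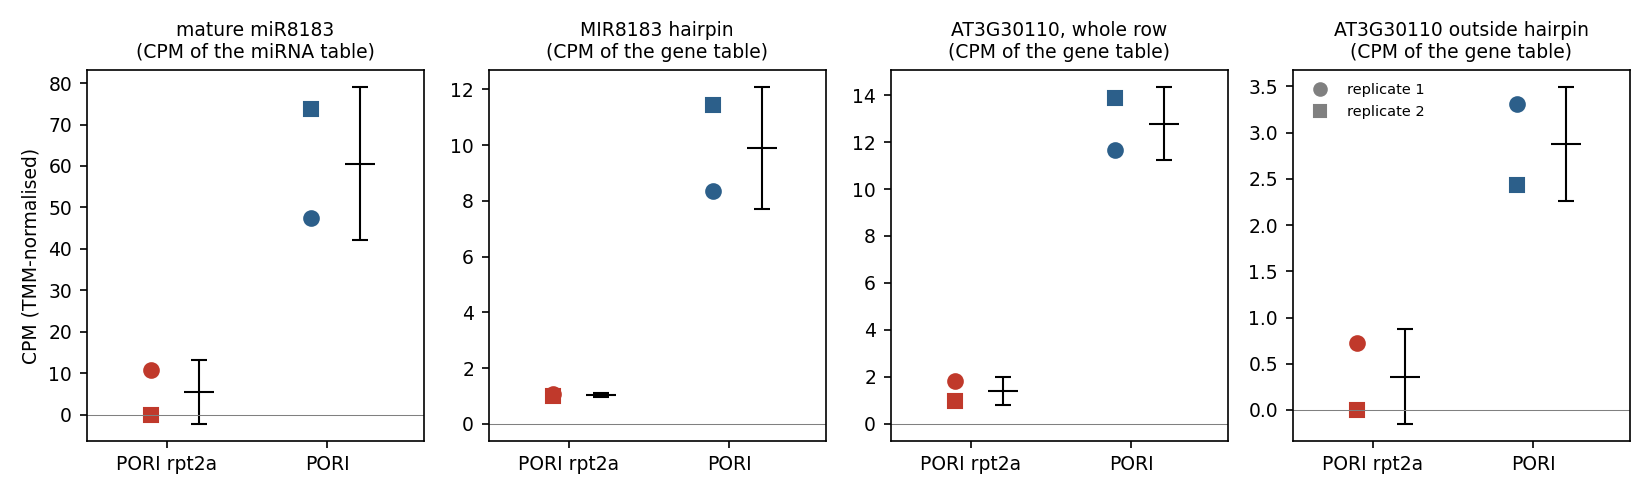
TMM-normalised CPM (vertical axis) of mature miR8183, the MIR8183 hairpin, the whole AT3G30110 row and its part outside the hairpin, in PORI rpt2a (left) and PORI (right); points are libraries, circles for replicate 1 and squares for replicate 2, and bars show the mean ± SD of 2 libraries. In each panel both PORI rpt2a libraries lie below both PORI libraries, and the hairpin stands at 1.08 and 0.991 CPM in PORI rpt2a and 8.36 and 11.4 CPM in PORI.

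All 3 parts were thus lower in PORI rpt2a, and their ratios could not be told apart at this depth. The mature row was 7.86-fold lower (exact 95% interval 2.52 to 39.6), scaled to the miRNA table. The other hairpin reads were 7.82-fold lower (3.14 to 25.1), beside 5.56-fold (1.95 to 21.8) outside the hairpin, both scaled to the gene table. The mature ratio is thus on another scale, and its nearness to 7.82 carries no meaning. The intervals overlap widely. The hairpin supplied 66.7% of the pseudogene row's reads in PORI rpt2a (exact 95% interval 34.9% to 90.1%) and 76.6% in PORI (68.2% to 83.7%). The mature strand made up 37.5% of hairpin reads in PORI rpt2a (3 of 8, exact 95% interval 8.52% to 75.5%) and 46.3% in PORI (44 of 95, 36.02% to 56.8%). With 8 hairpin reads in the mutant, a change in this composition was not detectable at this depth.

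Read length split the locus into 2 kinds of small RNA. Inside the hairpin, 74 of 103 reads were 21 nt long and 1 was longer than 22 nt. Outside it, 30 of 33 reads were 23 or 24 nt long. By library, the 21 nt hairpin reads numbered 5 and 1 in PORI rpt2a and 37 and 31 in PORI. The 23 to 24 nt reads outside the hairpin numbered 4 and 0 in PORI rpt2a and 17 and 9 in PORI. Both size classes were below both controls in each mutant library. Scaled to the 23 to 24 nt reads of the gene table alone, the reads outside the hairpin stood at 3.51 and 0 CPM in PORI rpt2a and at 14.99 and 9.74 CPM in PORI. These size classes made up 23.7% and 18.1% of gene-table reads in PORI rpt2a and 24.1% and 22.9% in PORI.

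**Figure D2:**
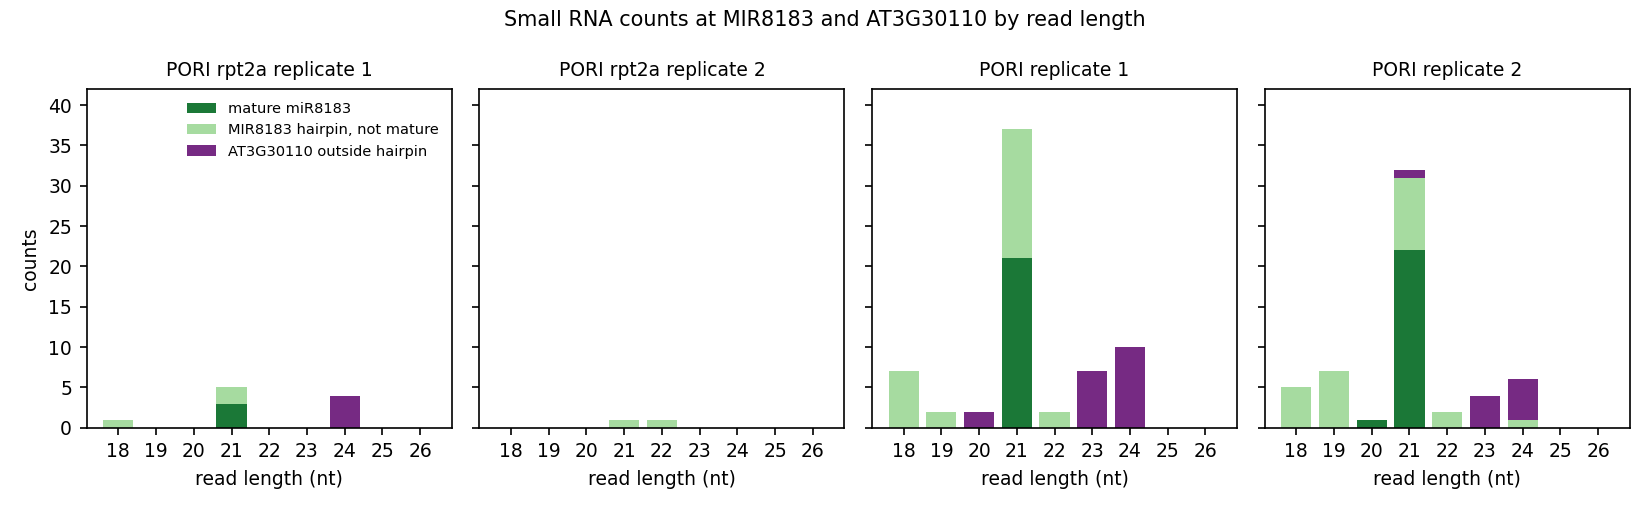
Counts (vertical axis) by read length in nt (horizontal axis) in each of the 4 libraries, stacked by part: mature miR8183, other reads of the MIR8183 hairpin, and AT3G30110 reads outside the hairpin. The controls show a peak of 37 and 32 counts at 21 nt inside the locus and reads of 23 and 24 nt outside the hairpin; PORI rpt2a holds 5 and 1 counts at 21 nt.

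At 21 nt the hairpin held more than the annotated mature strand. Mature reads took 3 of 5 and 0 of 1 of the 21 nt hairpin reads in PORI rpt2a, and 21 of 37 and 22 of 31 in PORI. In PORI the mature strand was therefore 63.2% of the 21 nt reads (exact 95% interval 50.7% to 74.6%). The tables do not give where in the hairpin the other 21 nt reads start.

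The hairpin also gave short reads, of 18 and 19 nt. They numbered 1 and 0 in PORI rpt2a, against 9 and 12 in PORI, and made up 22.1% of hairpin reads in PORI (exact 95% interval 14.2% to 31.8%). None was counted for mature miR8183. The miRNA table holds no 18 nt counts for any entry, but does hold 19 nt counts, 7.08% of its total. Over the whole gene table, 18 to 19 nt reads made up 20.5% and 29.2% in PORI rpt2a and 17.1% and 20.4% in PORI. With 2 hairpin reads in PORI rpt2a replicate 2, its 0 short reads allow a share of up to 84.2% (exact 95% interval).

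Set beside other MIR genes with at least 20 reads in PORI, the MIR8183 hairpin was ordinary in its 21 nt share and high in its short reads. Its 21 nt share in PORI was 71.6%, against a median of 53.8% over 183 other MIR genes (quartiles 10.7% and 81.9%). Its 18 to 19 nt share of 22.1% stood above that of 174 of the 183, whose median was 1.59%. Its mature share of 46.3% lay within the quartiles, 5.21% and 87.7%, of 128 other MIR genes that have a miRNA row of their own name. A strand shared by several genes may be counted in a joint row, as miR5643a/b is. Low shares, such as 0 of 361 reads for MIR394b, may then miss the main strand. All these shares are descriptions of the pooled PORI libraries. AT3G30110 as a whole was unlike other pseudogene rows. Its 23 to 24 nt share was 21.8%, against a median of 77.8% over 240 other pseudogenes, 8 of which lay lower. Without the hairpin reads that share was 89.7%, above 227 of the 240. It rests on 26 of 29 PORI reads, so its rank is uncertain. Rows whose identifiers carry the suffix TEG were left out of this set of pseudogenes.

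**Figure D3:**
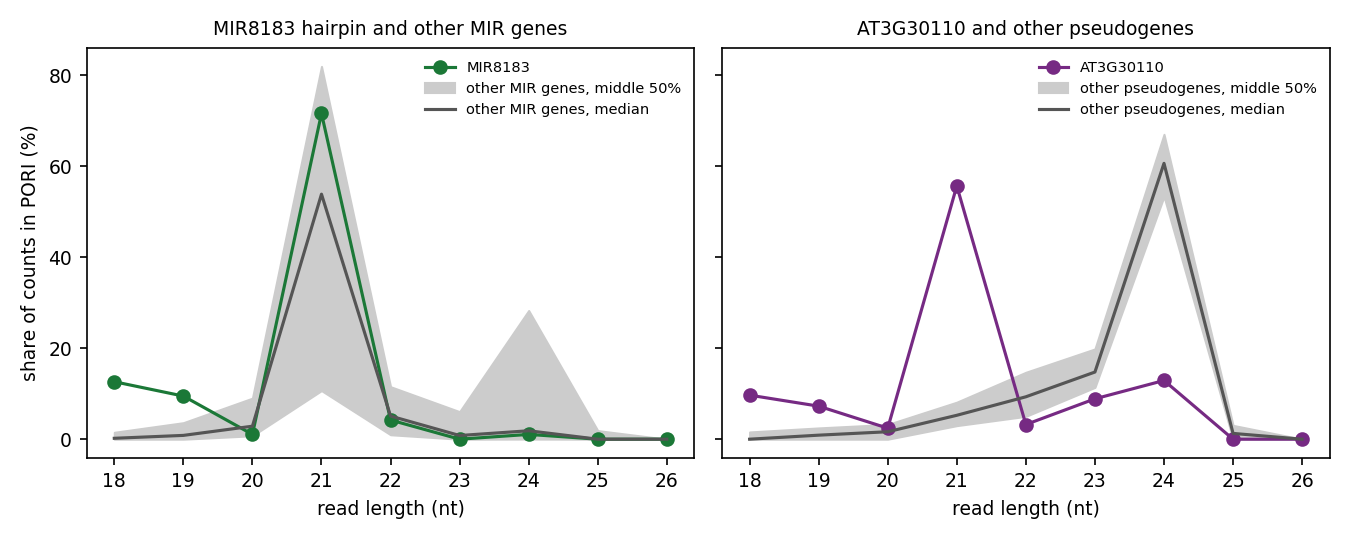
Share of PORI counts in percent (vertical axis) at each read length in nt (horizontal axis): the MIR8183 hairpin beside 183 other MIR genes (left) and AT3G30110 beside 240 other pseudogenes (right), with the median (line) and middle 50% (band) of the others. Both members peak at 21 nt and carry 18 to 19 nt reads above the bands, whereas the other pseudogenes peak at 24 nt.

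The nesting of counts was general. Of 60 pairs in which a MIR gene with at least 20 counts lies inside another gene, the host row held at least as many reads as the MIR row at every length in every library in 60. A length at which the MIR row held no read meets this by itself. The hairpin took 75.7% of the host's counts for MIR8183, against a median of 74.0% over the 59 other pairs (quartiles 26.4% and 94.5%). Another hairpin inside a pseudogene was MIR825 in the pseudogene AT2G26220. That hairpin held 157 and 10 reads in PORI rpt2a and 207 and 126 in PORI, 91.2% of them 21 nt long. AT2G26220 outside the hairpin held 25 and 7 reads in PORI rpt2a and 68 and 36 in PORI, 76.5% of them of 23 to 24 nt. This locus was divided by size as MIR8183 and AT3G30110 were, but the hairpins in hosts with the suffix TEG were not. Of the 8 such pairs with at least 20 hairpin counts, MIR8183 included, 5 had such hosts, and their hairpins held mostly 23 to 24 nt reads. These made up 92.9% of the reads of MIR8174, which had none of 21 nt, 57.7% for MIR854b, 66.7% for MIR854d, 85.7% for MIR854c and 75.9% for MIR854e. MIR854b stood higher in the mutant, at 14.997 and 10.9 CPM in PORI rpt2a and 5.58 and 6.33 CPM in PORI. The MIR825 hairpin stood at 28.4 and 4.96 CPM in PORI rpt2a and 36.1 and 30.7 CPM in PORI. AT2G26220 outside it stood at 4.52 and 3.47 CPM in PORI rpt2a and 11.8 and 8.77 CPM in PORI. Both parts were thus lower in PORI rpt2a without overlap, as were 29.6% of all tested genes. In PORI rpt2a replicate 1 the MIR825 hairpin was nearer to its controls than the MIR8183 hairpin was. In replicate 2 both hairpins were far below their controls. The difference between the 2 loci was not tested. MIR3440b inside AT3G18145 was sparser, at 24 and 3 reads in PORI rpt2a and 27 and 8 in PORI, with 2 reads in all outside the hairpin.

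Genes next to the pair gave few small RNAs. Of the 10 nearest annotated genes, 5 on each side, 4 had no read in any library, and 1, AT3G29820 (in the table with the suffix TEG), had enough to be tested. It stood at 11.2 and 6.44 CPM in PORI rpt2a and 6.97 and 6.33 CPM in PORI, and its log2 fold change was 0.44 with an SE of 0.44 (edgeR, 2 libraries per group, adjusted p = 0.592), and 78.7% of its reads were of 23 to 24 nt. The pseudogene AT3G30120, next on the other side, had 4 and 0 reads in PORI rpt2a and 2 and 3 in PORI. The protein-coding gene AT3G29970 had 4 and 0 reads in PORI rpt2a and 8 and 4 in PORI. Apart from AT3G29820, the neighbours held too few reads to show whether lower counts reach beyond AT3G30110.

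Read against each whole table, the 3 members were among the lowest log2 fold changes, which follows from how they were chosen. The fitted log2 fold change was -3.19 ± 0.50 for MIR8183, with 45 of 8110 tested genes lower, and -3.05 ± 0.49 for AT3G30110, with 50 lower (SE, n = 2 per group). For mature miR8183 it was -3.06 ± 1.18, with 0 of 111 tested miRNAs lower, a fitted value that depends on how a count of 0 is handled. All 3 passed the filter on low counts through their PORI libraries alone. In all 3 the groups did not overlap, a state shared in the same direction by 29.6% of tested genes and 24.3% of tested miRNAs, while 27.5% of genes and 15.3% of miRNAs were higher without overlap. edgeR's quasi-likelihood test called 2 of 8110 genes (0.0247%) and 0 of 111 miRNAs (0%), with 1872 genes and 5 miRNAs at an unadjusted p under 0.05, and DESeq2 called 477 genes and 2 miRNAs. The count of genes depended on each library, at 2733 and 1364 without PORI rpt2a replicates 1 and 2 and 18 and 27 without PORI replicates 1 and 2.

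**Figure D4:**
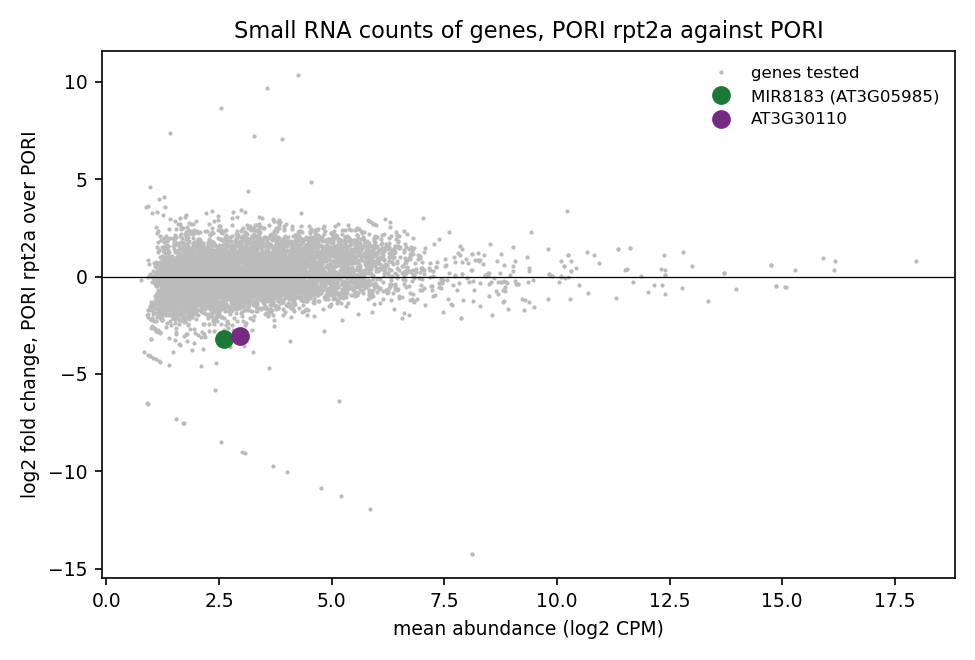
Log2 fold change of PORI rpt2a over PORI (vertical axis) against mean abundance in log2 CPM (horizontal axis) for 8110 genes tested (grey points), with MIR8183 and AT3G30110 marked. Both lie at the lower edge of the cloud, at -3.19 and -3.05.

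The values rested on few mutant reads, 8 for the hairpin and 12 for the pseudogene row. Without PORI rpt2a replicate 2 the log2 ratio of group mean CPM was -3.11 for MIR8183, against -3.26 with it, and -2.74 for AT3G30110, against -3.19. For mature miR8183 it was -2.51, against -3.49. That value moved most, and it rests on 3 reads of 1 mutant library. The miRNA table held 334074 and 125932 counts in PORI rpt2a and 395530 and 291475 in PORI. PORI rpt2a replicate 2 was the lowest of the libraries in depth and in miRNA counts and the highest in its 18 to 19 nt share. PORI rpt2a replicate 1 held 5884528 counts over the 3 tables and a share of 20.5%, with the hairpin at 1.08 CPM. The part of these features in the result was not tested beyond the values without PORI rpt2a replicate 2.

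Other miRNAs with late registry numbers lay on both sides of their controls under TMM scaling, but not with library sizes summed over the 3 tables. Of 112 rows with a family number of 3000 or above, miR8183 included, 67 had a read and 18 were tested. edgeR called 0, and 5 lay lower and 2 higher in PORI rpt2a without overlap, against 27 and 17 of all 111 tested miRNAs. Their median log2 fold change was -0.22, against -0.19 over all tested. With those sizes 10 lay lower and 0 higher without overlap, against 60 and 5 of all miRNAs. miR5643a/b had 13 and 0 reads in PORI rpt2a and 33 and 44 in PORI. miR5996 stood at 292 and 79.0 CPM in PORI rpt2a and 330.4 and 326.5 CPM in PORI, and miR5663-3p at 28.8 and 23.7 CPM in PORI rpt2a and 40.7 and 41.6 CPM in PORI. Under TMM scaling miR3932b-5p stood higher, at 3200 and 4809 CPM in PORI rpt2a and 2698 and 3016 CPM in PORI. With sizes summed over the 3 tables it no longer did, since 0 of the 18 lay higher without overlap. Among the 21 rows from miR8165 to miR8184, 13 had a read and 3 were tested. Besides miR8183 these were miR8175, with 3 and 9 reads in PORI rpt2a and 14 and 11 in PORI, and the miR8167 entry, with 1 and 7 reads in PORI rpt2a and 21 and 0 in PORI. In both, the groups overlapped.

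Of 325 MIR gene rows, 178 were tested and edgeR called 0. Their median log2 fold change was -0.54, against -0.035 over all genes, with 79 lower and 12 higher without overlap, against 2399 and 2227 of all 8110. MIR8183 lay far below the median of its own class, which follows from how it was chosen. The most abundant of those without overlap were MIR158a, at 11111 and 1292 CPM in PORI rpt2a and 15807 and 13860 CPM in PORI, and MIR166a, at 7930 and 11631 CPM in PORI rpt2a and 7319 and 6114 CPM in PORI. Of 946 pseudogene rows without the suffix TEG, 229 were tested and edgeR called 0, with a median of -0.25, 87 lower and 62 higher without overlap. The most abundant of these, AT5G32690, stood at 434 and 484 CPM in PORI rpt2a and 217 and 205 CPM in PORI. With the TEG rows there were 4843 pseudogene rows and 3143 tested, edgeR called 0, and the median was 0.52. AT3G30110 lay on the opposite side of 0 from that median, but on the same side as the median without the TEG rows. Its place, too, follows from how it was chosen.

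The genes that make and carry small RNAs held few reads, which do not measure their mRNA. Of 19 such genes 3 could be tested and edgeR called 0. DCL1, which cuts miRNA hairpins, had 29 and 19 reads in PORI rpt2a and 72 and 95 in PORI. Of these 215 reads, 151 were counted for MIR838 too, a hairpin inside DCL1 with 92.7% of its reads at 21 nt. MIR838 held 16 and 11 reads in PORI rpt2a and 42 and 82 in PORI. The DCL1 reads outside MIR838 were not compared between the groups, so the lower DCL1 row does not show that they were lower. AGO1, the main carrier of miRNAs, had 55 and 11 reads in PORI rpt2a and 65 and 46 in PORI, and AGO2, a related carrier, had 42 and 9 in PORI rpt2a and 64 and 37 in PORI. In CPM all 3 rows lay lower in PORI rpt2a without overlap, that of DCL1 with its MIR838 reads included. So did 29.6% of all tested genes. The median log2 fold change of the 3 rows, again with the MIR838 reads in that of DCL1, was -0.70, against -0.035 over all tested genes. DCL3, which makes 24 nt siRNAs, had 2 and 0 reads in PORI rpt2a and 6 and 0 in PORI, too few to test.

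Rows of similar profile were sought by correlating the square roots of the 36 counts over library and length with those of each row of at least 20 reads. The measure is dominated by the 21 nt peak and by the depth that all rows of a library share. For mature miR8183 the closest of 11055 gene rows were MIR167a (r = 0.928), MIR399c (0.924) and MIR838 (0.915). For the hairpin they were MIR393b (r = 0.857), MIR171a (0.846) and MIR823 (0.833), all MIR genes with 69.8% to 92.5% of their reads at 21 nt. MIR393b had 333 and 197 reads in PORI rpt2a and 811 and 609 in PORI. AT3G30110 was closest to AT3G06436 (r = 0.826), an annotated protein-coding gene with 34 and 4 reads in PORI rpt2a and 102 and 99 in PORI. Like AT3G30110 that row was mixed, with 35.1% of its reads at 21 nt and 32.6% at 24 nt. MIR841a (r = 0.819) and the long noncoding RNA AT1G08833 (0.806) followed. Among 10040 TE rows the closest were AT4TE34435 for mature miR8183 (r = 0.904), AT3TE08235 for the hairpin (0.842) and AT5TE51225 for AT3G30110 (0.798). No row of the gene or TE tables held the same 36 counts as a member.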

How the data were processed

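The authors deposited raw whole-number counts in 3 tables per library (genes, miRNAs, TEs), with 1 column for each read length between 18 and 26 nt. The submitters' processing notes name cutadapt 1.9.1, HTSeq, DESeq2, FastQC 0.11.2 and CASAVA 1.8.2 as tools and TAIR10 as the build. Not given in the sources used here are the aligner, the annotation release, strand use, and how reads with several matches or over nested features were counted. Names, classes, order and nesting of genes came from the TAIR10.1 assembly, matched for 37898 of 38194 gene rows.

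Counts summed over lengths were tested with edgeR 4.0.16 (R 4.3.3; quasi-likelihood, group as the only term, TMM, filterByExpr with minimum count 10 and total 15, Benjamini-Hochberg at 0.05), after a check on simulated data. The simulated rows all had the same dispersion, so that check covers the fitting and not the power in these libraries. SE was derived as |log2 fold change| over the root of the F statistic. DESeq2 1.42.0 was an alternative. Shares and ratios have exact 95% intervals (scipy 1.17.1). Ratios use pooled counts over the TMM-scaled library sizes of the table that holds the row. A count of 0 was bounded by 3 counts per library. No replicate is stated to be a separate culture, so p-values measure the spread between libraries, which may be technical.

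The members and lists were chosen with earlier results of these data known. Named rows were the members, 5 neighbours on each side, the rows most like each member, and the most abundant rows of each list whose groups do not overlap, of which the text gives some. The TE table was used for likeness only.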

Additional observations from a re-analysis of the deposited data

How the results depend on the processing

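The log2 ratio of group mean CPM stayed negative for all 3 members under DESeq2 size factors, with library sizes summed over all 3 tables, and without each library in turn, except that mature miR8183 had no ratio without PORI rpt2a replicate 1, since the remaining mutant library held 0 counts. Without 1 library the ratios spanned -3.90 to -2.51 for miR8183, -3.45 to -2.95 for MIR8183 and -3.63 to -2.74 for AT3G30110. Genes called by edgeR numbered 2 in the design used, 669 with no low-count filter, 0 with at least 50 counts and 18 to 2733 without 1 library (2733 and 1364 without PORI rpt2a replicates 1 and 2, 18 and 27 without PORI replicates 1 and 2). DESeq2, which gave an adjusted p for 4862 genes, called 477. Fitted with a replicate block, edgeR called 606. Same-numbered libraries deviated together at a correlation of 0.143 in genes and 0.174 in miRNAs, and with 2 pairs the numbers are not taken to pair the libraries. DESeq2 called 2 miRNAs. edgeR called 0, or 1 with DESeq2 size factors, 1 with no low-count filter and 0 to 31 without 1 library (31 without PORI rpt2a replicate 1). The cause of these moves was not tested. With library sizes summed over all 3 tables the median gene stood at a log2 fold change of -0.25, against -0.035, and the median miRNA at -0.85, against -0.19. With 3 to 12 mutant reads per member, depth limits every ratio and no change of composition could be resolved.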
